A study of Homo sapiens with 18 samples.

Results

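Amino acid transporters are represented on the HG-U133 Plus 2.0 array by 138 of 54675 probe sets, chosen by name alone: each is assigned to exactly 1 gene symbol, and that symbol belongs to the solute carrier families SLC1, SLC3, SLC6, SLC7, SLC36, SLC38 or SLC43. They stand for 56 of the 19775 genes with such an assignment, and by family there are 22 probe sets of 7 SLC1 genes, 4 of 2 SLC3 genes, 47 of 18 SLC6 genes, 29 of 13 SLC7 genes, 4 of 2 SLC36 genes, 27 of 11 SLC38 genes and 5 of 3 SLC43 genes. All 18 scans carry the same total RNA of FTC-133, a human cell line derived from a follicular thyroid carcinoma, which was cultured untreated, and the hybridization mix was divided over 3 arrays. In the second series, after a repeated staining of 3 rounds, arrays A and B were scanned after 0, 2, 7 and 17 further stringent washing cycles (A5 to A8, B5 to B8) and array C once (C2). In the first series the same steps gave scans A1 to A4 and B1 to B4 and a single scan of array C (C1). Directly before each staining array A received 0, array B 2 and array C 6 stringent cycles. Cycles of the first series add to those of the second. The total was therefore 17 cycles at scan A5, 21 at B5 and 12 at C2. The scans therefore differ in the washing, the staining, the array and the number of earlier scans of that array. No difference reported here is one between cells. According to the paper the scanner saturated for a few probes in the second series only, and bleaching by repeated scans could be neglected. Neither was tested here for the members.

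The solute carriers of amino acids divide the work of bringing in, exchanging and recycling amino acids at the plasma membrane and at the lysosome. The heavy chains of the SLC3 family bind light chains of the SLC7 family by a disulphide bridge and carry them to the cell surface, the SLC38 and SLC1 carriers take up glutamine, alanine and acidic amino acids together with sodium ions, and the SLC6 family includes carriers of neurotransmitters that are mostly used by neurons, kidney and intestine. Growing tumour cells commonly rely on the uptake of glutamine, leucine, arginine and cystine, and the lysosomal carriers feed the signal that tells the growth kinase mTOR of amino acid supply.

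The values are MAS5 signals, 1 per probe set and scan on a linear scale, and each scan had been scaled to an equal trimmed mean. A loss shared by all probe sets is therefore not seen, and a change is stated in log2 units less the median change of all 54675 probe sets, and called a relative change. Over 17 additional cycles this median moved by -0.61 on array A and -0.27 on array B in the first series, and by -0.27 on array A and -0.21 on array B in the second. The p-values belong to the change on the deposited scale, before the median was subtracted. They come from limma with Benjamini-Hochberg adjustment over all probe sets to a threshold of 0.05, and they measure the technical spread between scans of 2 or 3 arrays, since scans of 1 array repeat the same hybridization. The thyroid transcription factors NKX2-1 and PAX8 had signals of 765.9 and 757 on scan C1, against a median of 51.0 over all probe sets. TG (40.7), FOXE1 (39.9) and TSHR (38.9), further markers of thyroid cells, lay below that median. Of the markers of other cells, 1 of 4 for blood, 1 of 5 for neurons and astrocytes and 1 of 5 for liver lay above it, with HBB at 107, SNAP25 at 54.7 and APOA1 at 52.4 the brightest in these lists. Of 5 epithelial markers 3 did, KRT18 (1408), KRT8 (514) and EPCAM (214). The signals of different probe sets are not levels of transcript that can be set against each other, because each has its own probes. Probe sets whose names end in _x_at or _s_at can also bind related or several transcripts.

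Most amino acid transporter probe sets were dim. On scan C1, the scan after the standard number of cycles, 54 of the 138 lay above the median of all probe sets, 7 of them in the highest decile and 12 in the next, whereas 21 lay in the lowest decile. The 7 in the highest decile belonged to 4 genes. They were the 3 probe sets of SLC38A2 and 2 of SLC38A1, which both encode sodium-coupled system A carriers of alanine, glutamine and other small neutral amino acids, 1 of SLC7A1, the main carrier of arginine and lysine, and 1 of SLC6A6, the taurine carrier. SLC38A1, SLC38A2 and SLC38A4 are direct neighbours on chromosome 12 in the RefSeq annotation. Of the 3, SLC38A4, another system A carrier that is known from liver and placenta, had 64.2 on its brighter probe set, close to the median. In all, 7 of 9 probe sets of the system A carriers and 9 of 18 of the other SLC38 carriers exceeded the median, but only 3 of 19 for the GABA and monoamine carriers, 3 of 16 for the glutamate carriers and 2 of 16 for the neutral amino acid carriers of the SLC6 family. The brightest of these last 3 groups were SLC6A3, the dopamine carrier (149), SLC1A1, a glutamate and cysteine carrier (115.5), and SLC6A19, a carrier of kidney and intestine (52.5). SLC6A14, which takes up neutral and cationic amino acids, had 1.70 and was the dimmest of the 56 genes by its best probe set, for which it was singled out after the values were seen. On the other 17 scans it had 17.9 to 107. SLC6A9, a glycine carrier, had 23.8 and SLC43A3, a carrier of nucleobases in the same family as the large neutral amino acid carriers, 7.96.

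The same RNA gave steadier signals in the higher deciles of scan C1 than in the others. Over the 18 scans the highest signal of a probe set was 3.18 times its lowest in the median of the 54 brighter members, against 3.82 times for all probe sets above the median, and 17.5 times in the 84 dimmer members, against 18.7 times for all probe sets below it. Within the brighter members the median was 2.66, 2.06 and 2.97 times in the highest, the second and the third decile (all probe sets 2.22, 2.21 and 3.585). It was 5.16 times in the next (all probe sets 7.43). In the 13 members just above the median it was 17.4 times, as wide as in the dimmer members, against 12.2 times for all probe sets of that decile. SLC38A6 varied least, with a lowest signal of 495 on scan A4, a median of 580.5 and a highest of 803.9 on scan C2, a range of 1.62 times. It was followed by SLC38A5, a glutamine carrier (1.73 times), the probe set 202219_at of SLC6A8, the creatine carrier (1.75 times), 209921_at of SLC7A11, the cystine and glutamate exchanger (1.77 times), and 200924_s_at of SLC3A2, the heavy chain known as CD98 (1.91 times). SLC6A8 has a near-identical copy in the genome, so that its probe sets may not measure this gene alone. At the other end the probe set 1554724_at of SLC6A11, a GABA carrier, ranged over 173 times, with a lowest signal of 0.551 on scan B1 and a highest of 95.5 on scan A1. Among the brighter members 213664_at of SLC1A1 had the widest range (48.5 times), with a lowest signal of 5.61 on scan B8 and a highest of 271.8 on scan A1.

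**Figure D1:**
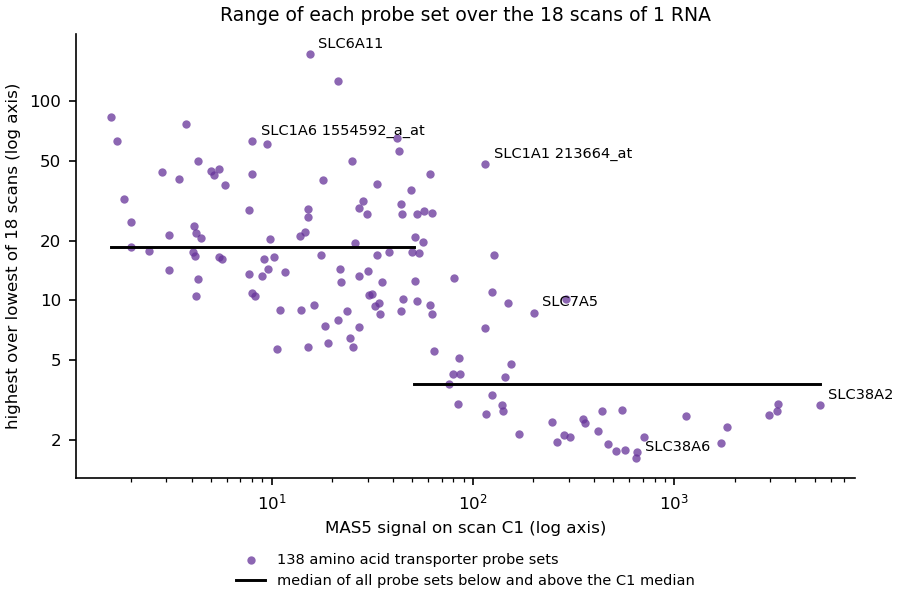
Highest over lowest MAS5 signal of the 18 scans (vertical log axis) against the signal on scan C1 (horizontal log axis) for each of the 138 amino acid transporter probe sets, with the median over all probe sets below and above the C1 median as black lines. Below a C1 signal of 51.0 the points scatter around a range of 18.7 times, whereas all 19 of the 2 highest deciles lie between 1.62 and 3.03 times.

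Washing was tested first over the 8 first-series scans of arrays A and B, as 17 against 0 additional cycles with the array as a block. None of the 138 members passed, with 0 higher and 0 lower (limma), as was the case for all probe sets, of which 0% were called higher and 0% lower. Without adjustment (p under 0.05) 5 members were higher and 13 lower, against 1914 and 7573 of all probe sets, and the adjusted p of the members lay between 0.192 and 0.990. In a second fit, in which the moderation followed the signal and was robust to outlying variances (the trended fit), 4 members were called higher (2.90%) and 1 lower (0.725%), against 3.57% higher and 1.21% lower of all probe sets. The median change of the members relative to all was 0.02, with 71 of 138 above the median of all. As a group the transporters thus stayed at the middle of the array. Anchoring each scan on the 100 brightest probe sets of scan C1 in place of the deposited scaling moved the median of all probe sets to -1.80, and then called 0 members higher and 63 lower (45.7%), against 54.6% lower of all probe sets.

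The 4 called higher in that setting were the 3 probe sets of SLC38A2 and 212295_s_at of SLC7A1. The brightest member, 222982_x_at of SLC38A2, had signals of 3042, 4780.0, 5884 and 6591 on scans A1 to A4 and of 5570.3, 7436, 8607 and 9044 on B1 to B4. Scaled signals thus climbed at every step on both arrays, and most over the first 2 cycles. Relative to all probe sets this gave 1.73 for array A and 0.97 for array B. On the deposited scale it was 0.91 over both arrays (standard error 0.278, adjusted p = 0.238, and 0.000104 in the trended fit). With quantile normalization, which holds the brightest ranks in place, its relative change was -0.03. The other 2 probe sets of the gene, 218041_x_at and 220924_s_at, gave 1.66 and 1.64 for array A and 0.77 and 1.03 for array B, so that the 3 probe sets of SLC38A2 behaved alike. SLC7A1 had 1451, 2044, 2454 and 2685 on A1 to A4 and 2414, 3080.4, 3451 and 3855 on B1 to B4, a relative change of 1.50 on array A and 0.94 on array B (0.78 on the deposited scale, standard error 0.266, adjusted p = 0.261, and 0.00125 in the trended fit). A signal that climbed at each of the 3 steps on both arrays was found for exactly these 4 members (2.90%, against 3.77% of all probe sets). The only member called lower in that setting, 1569916_at of SLC6A15, a neutral amino acid carrier of neurons, was dim. Its signals were 24.8, 9.99, 2.88 and 1.49 on A1 to A4 and 28.7, 35.5, 43.6 and 1.38 on B1 to B4, so that on array B its fall rests on scan B4 alone.

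**Figure D2:**
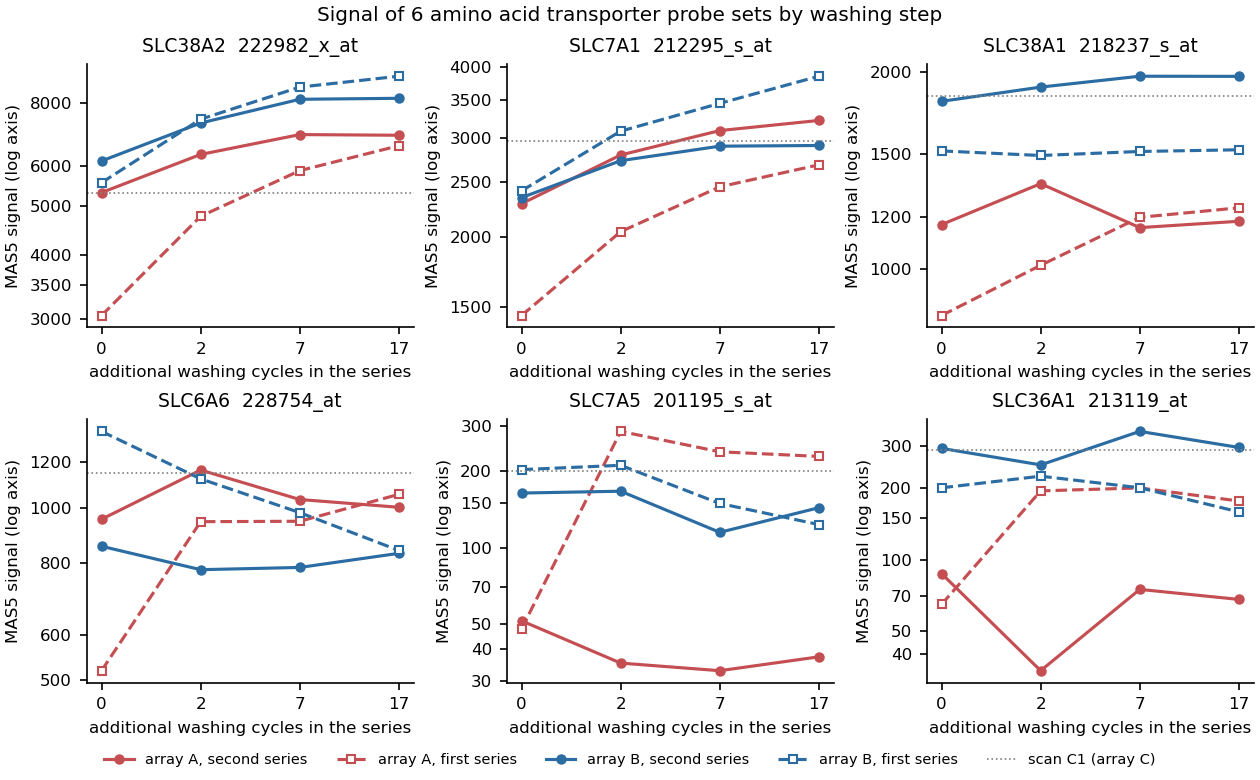
MAS5 signal (log axis) of 6 probe sets after 0, 2, 7 and 17 additional washing cycles, for arrays A (red) and B (blue) in the second series (filled circles, solid lines) and the first series (open squares, dashed lines), with the signal on scan C1 as a dotted line. SLC38A2 and SLC7A1 climb on both arrays of the first series, where SLC38A1 and SLC6A6 climb only on array A, and SLC7A5 and SLC36A1 are low on scan A1 and again on scans A5 to A8.

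SLC38A1, the other bright system A carrier, climbed at every step on array A by its 2 bright probe sets, but not on array B. By 218237_s_at it had 849, 1013, 1199.8 and 1241 on A1 to A4 and 1516, 1492, 1513 and 1522 on B1 to B4, a relative change of 1.16 and 0.27. On array B its scaled signal hardly moved over the whole series. Its second bright probe set, 224579_at, had a relative change of 0.85 on array A and -0.09 on array B. Neither passed the test (adjusted p = 0.638 for 218237_s_at and 0.939 for 224579_at). SLC6A6 differed most between the arrays among the 19 members of the 2 highest deciles. Its probe set 228754_at had 519, 945, 947 and 1055 on A1 to A4, but 1359.8, 1123, 980.4 and 842 on B1 to B4, so that it climbed on array A and dropped at every step on array B, with relative changes of 1.64 and -0.42 (adjusted p = 0.875). Without scan A1 its relative change over the remaining scans was -0.23.

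The exchanger of large neutral amino acids consists of SLC7A5, a light chain that takes up leucine, and SLC3A2, its heavy chain. The probe set 201195_s_at of SLC7A5 had 48.0, 285.9, 237.8 and 228 on A1 to A4 and 202, 210.4, 149 and 123 on B1 to B4, and 200.4 on scan C1. Scan A1 is thus the one low value among the 9 first-series scans. The relative change came to 2.86 for array A and -0.45 for array B (adjusted p = 0.640), and it was -0.31 without scan A1. SLC3A2 had 329.8, 499.8, 431 and 442 on A1 to A4 and 455, 425, 409.7 and 414 on B1 to B4, and changed by 1.03 and 0.13 relative to all (adjusted p = 0.825). The 2 partners had in common that scan A1 was their lowest of the first series, but the gap was far wider for SLC7A5. SLC43A2, a carrier of leucine, phenylalanine and methionine, differed between its 2 probe sets. The brighter, 226629_at, had 84.4, 230.0, 169 and 201 on A1 to A4 and 109.5, 214, 31.8 and 175 on B1 to B4. The dimmer, 228918_at, had 203, 232, 14.9 and 17.1 on A1 to A4 and 20.8, 9.67, 43.4 and 8.22 on B1 to B4. Their relative changes were 1.86 and -2.95 for array A and 0.94 and -1.07 for array B (adjusted p = 0.524 for 226629_at and 0.445 for 228918_at). On array B neither probe set kept an order from step to step.

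SLC7A11, whose exchanger brings in the cystine needed for glutathione, had 586, 710.2, 486 and 400.5 on A1 to A4 and 536, 599, 554 and 544 on B1 to B4. The relative changes of this probe set, 209921_at, were 0.06 and 0.29, those of the second, 217678_at, -0.05 and -0.33, and those of the third and dimmest, 207528_s_at, 0.92 and 1.19 (adjusted p = 0.673 for 209921_at, 0.326 for 217678_at and 0.518 for 207528_s_at). SLC1A5, a glutamine carrier much used by tumour cells, had 596, 619, 492 and 517 on A1 to A4 and 515, 501, 469 and 491 on B1 to B4, with relative changes of 0.41 and 0.20 (adjusted p = 0.806), which were -0.03 over both arrays with quantile normalization. SLC1A4, its relative for alanine, serine and cysteine, had relative changes of 1.92 and 0.57 on the brightest of 5 probe sets, 212811_x_at, with 114, 195, 134 and 282 on A1 to A4. Its 5 probe sets were divided, since 209611_s_at gave 1.54 and 0.41 and 244377_at 0.48 and 1.24, but 212810_s_at gave -1.04 and 0.27 and 209610_s_at -2.28 and -0.44. Among the SLC7 relatives the 3 probe sets of SLC7A6, a light chain that exchanges cationic for neutral amino acids, gave 0.24, 0.12 and -0.78 for array A and -0.32, 0.01 and 0.78 for array B (203580_s_at, 203578_s_at and 203579_s_at), so that they took opposite orders on the 2 arrays.

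The carriers of the lysosome and of proton-coupled uptake were divided. SLC36A1, which releases small amino acids from the lysosome, had 64.7, 194, 200.0 and 176 on A1 to A4 and 200.2, 224, 200.3 and 159 on B1 to B4 by 213119_at, again with scan A1 as the low value, and relative changes of 2.06 and -0.07. SLC38A9, the lysosomal arginine sensor of mTOR signalling, had 224, 217, 278 and 285 on A1 to A4 and 312, 179, 157 and 158 on B1 to B4. This probe set, 235241_at, changed by 0.96 relative to all on array A, but by -0.71 on array B. The dimmer 243709_at gave -0.49 and -1.87. SLC36A4, a carrier of proline and tryptophan, had 515, 542, 455 and 340.2 on A1 to A4 and 493, 460.4, 440.3 and 248 on B1 to B4 by 234978_at, relative changes of 0.01 and -0.72. Its dimmer 230874_at gave 0.80 and -0.85. None passed the test (adjusted p = 0.599 for SLC36A1, 0.718 for SLC38A9 and 0.269 for SLC36A4). All 4 probe sets of the SLC36 carriers lay above the median change on array A, and 0 of 4 did on array B. In SLC38A7, a carrier of glutamine out of the lysosome, the probe sets 218727_at and 228951_at parted over scans A1 to A4. There 218727_at had 63.6, 150.4, 189 and 182, and 228951_at had 519, 263, 217 and 149. Their relative changes over these scans were 2.13 and -1.19. Elsewhere the pair lay closer together, with 0.24 and -0.43 over B1 to B4. After the second staining it had 0.14 and 0.20 over A5 to A8, and -0.21 and -0.27 over B5 to B8.

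The neurotransmitter carriers included the steepest loss of a brighter member on array A. The GABA carrier SLC6A11 by 207048_at had 258, 216, 26.6 and 15.2 on A1 to A4 and 72.8, 88.1, 137 and 114 on B1 to B4, relative changes of -3.47 and 0.92. SLC6A13, another GABA carrier, had relative changes of -1.91 and 0.84 by 237058_x_at. Both probe sets thus fell behind the array on A and ran ahead of it on B, and neither passed the test (adjusted p = 0.542 for SLC6A11 and 0.633 for SLC6A13). In SLC6A11 1554724_at (-0.87 and 2.98) and 240348_at (-0.32 and 1.02) had the same order, but 230286_at fell behind on both arrays (-0.18 and -2.38). The other probe set of SLC6A13, 207184_at, had 0.31 and -0.01. By median the 19 GABA and monoamine probe sets changed by -0.60 on array A and 0.71 on array B relative to all. The 16 glutamate carrier probe sets changed by -0.66 and 0.71, and the 12 of the SLC6 carriers of glycine, taurine, proline and creatine by -0.60 and 0.38. The medians of the system A group were 0.85 and 0.77, above 0 on both arrays. So were those of the heavy chains (0.48 and 0.06) and of SLC1A4 with SLC1A5 (0.44 and 0.34). The SLC7 light chains other than SLC7A5 and SLC7A8 had 0.006 and 0.38. For all probe sets below the median of scan C1 the medians were -0.63 on array A and 0.02 on array B. In the highest decile they were 1.25 and 0.47. These medians describe the 2 arrays, and their differences between the groups of carriers were not tested. The highest changes of brighter members over both arrays belonged to signals that jumped between neighbouring steps. SLC1A7, a glutamate carrier of the retina, had 38.1, 34.3, 111.9 and 73.5 on A1 to A4 and 9.60, 58.1, 7.83 and 36.2 on B1 to B4 by 207355_at (relative change 1.88, adjusted p = 0.524). SLC7A4, a relative of the cationic carriers, had 29.1, 28.0, 15.3 and 19.1 on A1 to A4 and 12.4, 11.9, 25.0 and 94.3 on B1 to B4 by 205864_at (relative change 1.61, adjusted p = 0.563). In SLC7A4 scan B4 alone stood out. SLC38A12, the lowest of the brighter members on array B, likewise rested on scan B4, with 210.3, 197.5, 124 and 19.2 on B1 to B4 and 77.7, 68.4, 63.4 and 146 on A1 to A4 (relative changes of -3.19 on array B and 1.52 on array A, adjusted p = 0.603).

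The change of a transporter by washing on array A broadly followed its signal on array C, which enters neither side of the change. In the highest decile of scan C1 the members' median relative change reached 1.64 for array A and 0.77 for array B, against 1.25 and 0.47 for all probe sets of that decile. In the lowest decile it was -1.29 and 0.48, against -0.91 and 0.10 for all probe sets of that decile. On array A the transporters thus ran from low to high between these ends, but not decile by decile. Their medians were 0.80, 1.14 and 0.39 in the 7th, 8th and 9th deciles, against -0.04, 0.33 and 0.62 for all probe sets. On array B the highest decile stood out for all probe sets, with 0.47 against -0.22 in the 7th. The members kept no steady order there, with 0.84 in the 6th decile and 0.77 in the highest. Members in the 2 highest deciles stood 2.01 above those in the 2 lowest on array A and 0.07 above them on array B. Ranked by scan A1, which is itself part of the change on array A, the distance came to 0.72 for array A and 0.05 for array B.

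**Figure D3:**
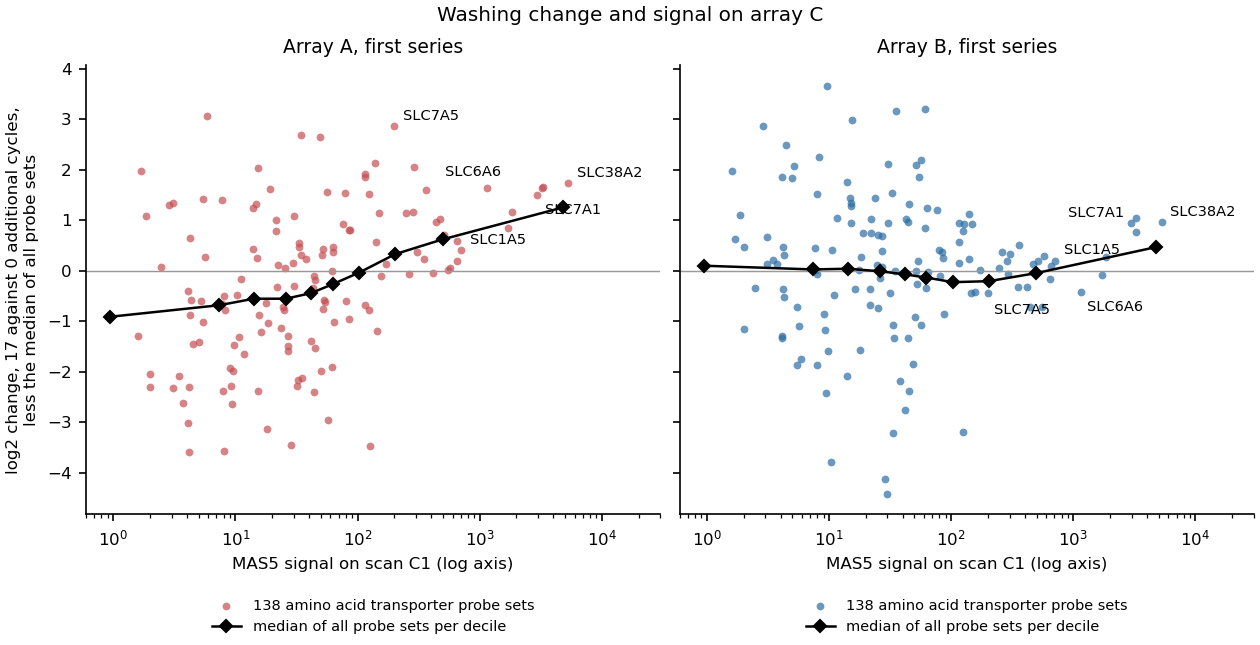
Log2 change over 17 additional cycles of the first series less the median of all probe sets (vertical axis) against the MAS5 signal on scan C1 (horizontal log axis), for the 138 amino acid transporter probe sets (points) on array A (left) and array B (right), with the median of all probe sets per decile of scan C1 as black diamonds at the geometric middle of the decile's range. On array A the diamonds lie between -0.91 in the lowest and 1.25 in the highest decile, and on array B between -0.22 and 0.47.

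Over all 138 the Pearson correlation of the relative change between arrays A and B was 0.00 and Spearman's 0.02, against 0.08 and 0.11 for all probe sets, and 72 members (52.2%) were either above or below the median on both, against 54.7% of all probe sets. Members of the 2 highest deciles did so in 13 of 19 cases (68.4%, against 69.4% of all probe sets of these deciles), 12 of them above the median on both arrays, with a Pearson correlation of 0.60 (all probe sets 0.58). Members of the 6th to 8th deciles did so in 21 of 35 cases with a correlation of -0.01 (all probe sets 0.04). These are correlations across probe sets, which share arrays, scaling and in part genes, and they carry no p-value.

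**Figure D4:**
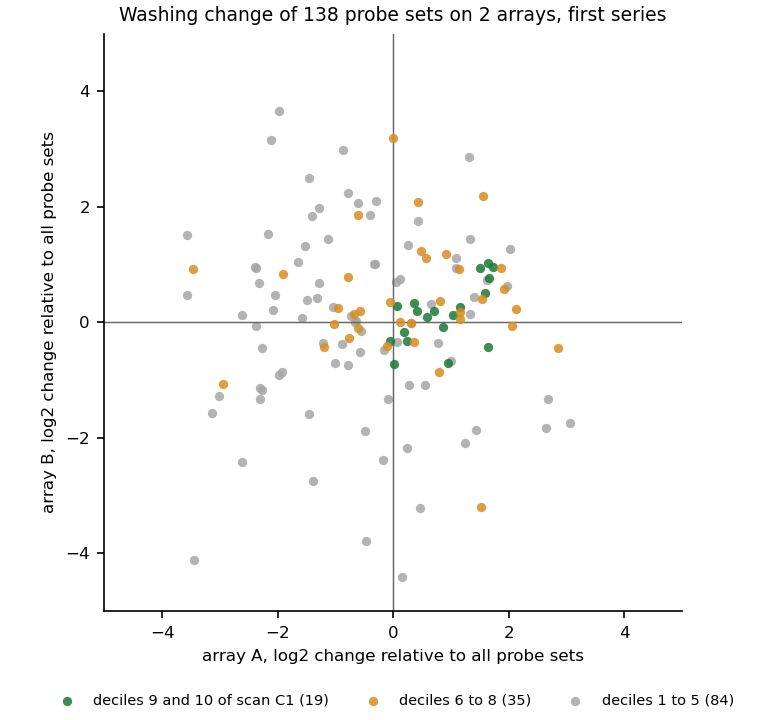
Log2 change over 17 additional cycles of the first series relative to all probe sets on array A (horizontal) and array B (vertical) for the 138 probe sets, coloured by the decile of scan C1. The 19 probe sets of the 2 highest deciles (green) lie mostly in the upper right, with 12 above the median on both arrays, while the 84 dim ones (grey) fill all quadrants.

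For 36 of the 56 genes 2 or more probe sets could be compared, which report on the same transcript pool in the same scan. The probe set that was brightest on scan C1 had a higher change than the dimmest in 18 of 36 genes on array A and in 23 on array B, with a median difference of 0.03 and 0.25. Over all 10523 genes with several probe sets the brightest was the higher one in 66.5% on array A and 54.8% on array B, with a median difference of 0.69 and 0.14. On array A the transporter genes were thus evenly divided, which describes 36 genes and was not tested. With the order taken from the mean of all 18 scans, which includes the scans of the change, the brightest was the higher one in 24 genes on array A and 23 on array B. In 8 of the 36 genes (22.2%, against 16.6% of all 10523) the 2 probe sets differed by at least 1 log2 unit in the same direction on both arrays in the first series, a difference in shares that was not tested. In 7 of them, SLC36A1, SLC38A9, SLC3A1, SLC43A2, SLC6A2, SLC6A6 and SLC7A4, the brighter was the higher, and in SLC6A11 the dimmer was. In the second series 2 of the 8, SLC43A2 and SLC6A2, again differed so by at least 1 unit on both arrays. Of all 10523 genes 200 did so in both series. Both SLC6A2 probe sets lay below the median of scan C1 (44.9 and 3.74). In SLC6A11 the order turned round on both arrays (0.92 and 1.17), and in SLC7A4 (-2.49), SLC6A6 (-1.22) and SLC38A9 (-0.11) on array A and in SLC3A1 (-1.004) and SLC36A1 (-0.47) on array B. In SLC6A6 the bright probe set 228754_at (1149 on scan C1) changed by 1.64 on array A and -0.42 on array B, and the dim 228756_at (10.3) by -0.47 and -3.79. In SLC38A2 the brightest and the dimmest differed by only 0.08 on array A and -0.07 on array B. The same held for SLC7A1 between 212295_s_at and the dim 212292_at (19.0 on scan C1), with -0.12 and 0.20, but its 3 other probe sets changed by -0.60, -0.58 and 1.15 on array A.

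After the second staining again no transporter passed the washing test. In the 8 second-series scans 0 members were higher and 0 lower (limma), again as for all probe sets (0% and 0%), with 2 higher and 17 lower members at an unadjusted p under 0.05, against 1395 and 6358 of all. In the trended fit 4 members were called higher (2.90%) and 0 lower, against 2.38% higher and 0.448% lower of all probe sets. They were again SLC7A1 212295_s_at and the 3 probe sets of SLC38A2. SLC38A2 222982_x_at had 5324, 6334, 6934 and 6913 on A5 to A8 and 6149, 7309, 8143 and 8179 on B5 to B8, relative changes of 0.64 and 0.62. On the deposited scale the change was 0.39 (standard error 0.170, adjusted p = 0.375, and 0.00390 in the trended fit), and with quantile normalization its relative change was -0.09. SLC7A1 had 2291, 2795, 3088 and 3218 on A5 to A8 and 2348, 2731, 2897 and 2905 on B5 to B8, relative changes of 0.76 and 0.52 (adjusted p = 0.379, and 0.0246 in the trended fit). SLC7A1 212295_s_at and SLC38A2 220924_s_at were the 2 members whose signal climbed at every step on both arrays in both series (1.45%, against 1.03% of all probe sets). SLC6A6 lost the contrast between the arrays, with 954.5, 1164, 1034 and 1002 on A5 to A8 and 856, 779, 786 and 832 on B5 to B8 and relative changes of 0.34 and 0.17. The largest fall of a brighter member, 213664_at of SLC1A1, came from 1 scan: its signals were 137, 59.5, 70.3 and 5.61 on B5 to B8, and 118, 146, 88.1 and 124 on A5 to A8.

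The difference between the washing changes of the 2 series was tested itself, as an interaction over 16 scans. None of the 138 members passed, with 0 higher and 0 lower in the second against the first series (all probe sets 0% and 0%). At an unadjusted p under 0.05 (limma) 3 members were higher and 3 lower, against 2686 and 1408 of all probe sets. The adjusted p of the members lay between 0.580 and 0.997. In the trended fit 0 members were called in either direction, against 0.0384% of all probe sets higher and 1.38% lower. SLC38A2 222982_x_at changed by 0.64 in the second series and by 1.35 in the first, and the test of that difference gave an adjusted p of 0.728, and 0.0622 in the trended fit. The largest difference among the brighter members was that of SLC6A15 240419_at, with relative changes of -1.69 in the second series and 1.27 in the first (adjusted p = 0.644). A smaller change after the second staining was thus not shown for any single transporter.

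Re-labelling was tested over all 18 scans as 9 pairs of the same array and step within the series, second against first series. The second-series scan of a pair had also been through more washing in all, such as 17 cycles on A5 against 0 on A1. On array C the totals were 12 on C2 against 6 on C1. The test therefore cannot tell the staining apart from that washing or from the earlier scans. It called 1 member higher (0.725%, against 0.294% of all probe sets) and 1 lower (0.725%, against 0.541%), and 1 and 1 in the trended fit, against 1.53% and 1.83% of all probe sets. Both are glutamate carriers and both are dim. SLC1A6, known from Purkinje cells of the cerebellum, had 62.1, 71.4, 72.6 and 60.0 on A5 to A8, 22.7, 23.9, 27.3 and 39.9 on B5 to B8 and 42.3 on C2 by its probe set 1554592_a_at. In the first series the same probe set had 79.8, 26.8, 4.74 and 4.41 on A1 to A4, 3.51, 2.12, 1.26 and 8.34 on B1 to B4 and 8.02 on C1. It was higher in 8 of 9 pairs, all but that of A5 and A1, and the 2 series overlap through scans A1 and A2. The change was 2.67 on the log2 scale (standard error 0.453, adjusted p = 0.0370). The other 2 probe sets of SLC1A6 did not share it, being higher in 4 of 9 pairs for 1554593_s_at and in 5 of 9 for 206882_at.

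SLC1A1 by its dimmer probe set 206396_at had 33.7, 27.4, 28.7 and 21.7 on A5 to A8, 19.7, 14.5, 9.15 and 10.1 on B5 to B8 and 10.7 on C2 in the second series. In the first series it had 96.6, 155.6, 39.4 and 40.4 on A1 to A4, 58.2, 63.0, 21.8 and 49.1 on B1 to B4 and 17.6 on C1. It was lower in all 9 pairs, although the ranges of the 2 series overlap because the arrays differ, and the change was -1.48 (standard error 0.233, adjusted p = 0.0341). The brighter probe set of the gene, 213664_at, was lower in 8 of 9 pairs, with a change of -1.12 (standard error 0.450, adjusted p = 0.213). Both calls need both of the arrays with 4 pairs: without array A the adjusted p was 0.0665 for SLC1A6 and 0.0979 for SLC1A1, and without array B 0.235 and 0.218. With the array as the unit, 3 pairs, it was 0.777 for both, and without the block for the pairs it was 0.0805 for SLC1A6 and 0.131 for SLC1A1. Across all 18 scans 0 members (0.0348% of all probe sets) lay entirely above their first-series values in the second series, and 0 (0.0402%) entirely below them.

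**Figure D5:**
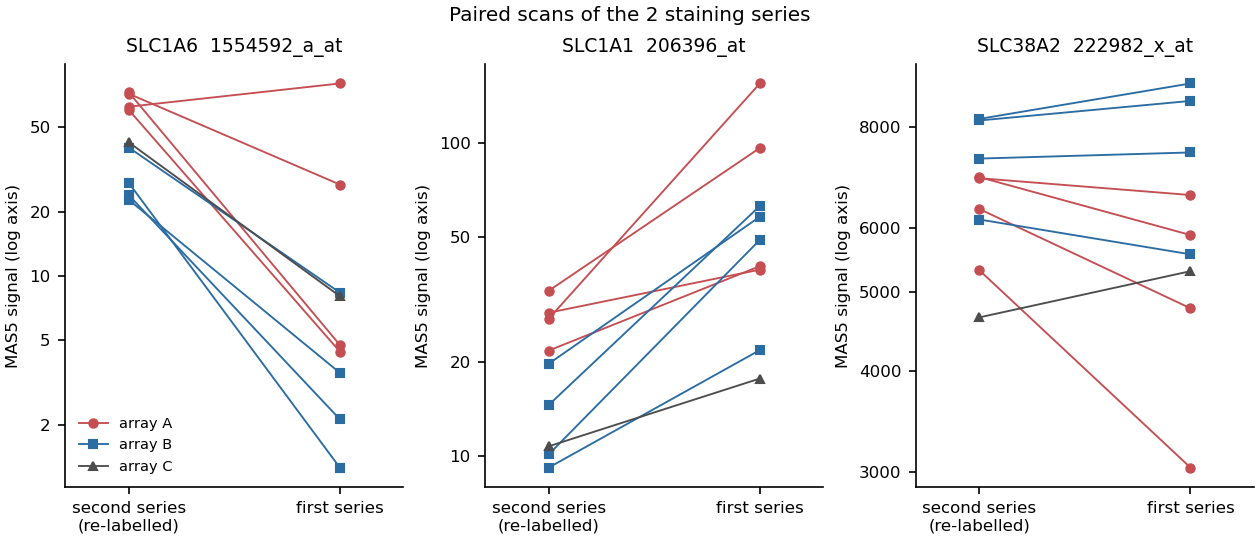
MAS5 signal (log axis) of 3 probe sets in the second series (left of each panel) and the first series (right). A line, coloured by array, joins each of the 9 pairs of scans of the same array and washing step within the series. SLC1A6 1554592_a_at is higher in the second series in 8 of 9 pairs, SLC1A1 206396_at is lower in all 9, and SLC38A2 222982_x_at shows no common direction.

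The remaining transporters did not pass this test. Over all members the median change relative to all was 0.01, with 70 of 138 above the median of all. Anchored on the 100 brightest probe sets, where the median of all moved to 0.40, the test called 28 members higher (20.3%, against 20.1% of all probe sets) and 1 lower (0.725%, against 0.995%). SLC38A2 222982_x_at changed by 0.14 (standard error 0.130, adjusted p = 0.597), with the single widest pair at 0 additional cycles on array A, where scan A5 had 5324 and scan A1 3042. With quantile normalization its relative change was -0.05. SLC7A5 was on average lower in the second series, by -1.06 (standard error 0.413, adjusted p = 0.202), and the per-array values differ: A6 to A8 had 35.3, 32.9 and 37.3 where A2 to A4 had 285.9, 237.8 and 228, while B6 to B8 had 167, 115 and 143.5 where B2 to B4 had 210.4, 149 and 123. SLC36A1 had the same feature, with 34.1, 74.9 and 67.9 on A6 to A8 where A2 to A4 had 194, 200.0 and 176, and 250.0, 346 and 296 on B6 to B8 where B2 to B4 had 224, 200.3 and 159. SLC6A3, the brighter member with the largest fall, had a change of -1.15 (standard error 0.353, adjusted p = 0.126), with 22.1, 22.7, 16.5 and 15.3 on B5 to B8, against 54.4, 102, 80.6 and 86.2 on B1 to B4.

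Arrays B and A differed in level over their 8 scans each, which cannot be told apart from the 2 cycles that array B received before staining, since each is 1 array. In 2 members (1.45%, against 2.35% of all probe sets) every scan of array B exceeded every scan of array A, and in 13 (9.42%, against 10.4%) every scan of array A exceeded every scan of array B. In the highest decile of scan C1, where both of the 2 lay, 16.3% of all probe sets had array B wholly above array A. The 2 were the bright probe sets of SLC38A1. By 218237_s_at this gene lay between 1492 and 1973 on array B and between 849 and 1351 on array A, and by 224579_at between 1356 and 2049 on array B and between 1064 and 1259.6 on array A. Of the 13, 11 lay below the median of scan C1 (13.1% of the members there, against 13.4% of all probe sets there). The other 2 lay above it (3.70% of the members there, against 7.44% of all). They were 244377_at of SLC1A4, with 7.77 to 61.4 on array B and 116 to 214.5 on array A, and 215979_s_at of SLC7A1, with 44.3 to 134.5 on array B and 158 to 386 on array A. The bright probe set of SLC7A1, 212295_s_at, by contrast overlapped between the arrays and had its lowest signal on scan A1.

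Genes that respond to or sense amino acids gave the context for these carriers. In the starvation response list, 0 of 15 measured genes passed the washing test of the first series in either direction, and 3 were called higher and 1 lower in the trended fit. ATF4, the transcription factor of that response, had 4337 on A4 and 1462 on A1, and 4612 on B4 and 3009 on B1, relative changes of 2.18 and 0.88. EIF2S1, the initiation factor subunit that is phosphorylated in it, changed by 1.86 and 1.19, and SHMT2, a mitochondrial serine enzyme, by 1.72 and 0.76. PSPH, which makes serine, was the one called lower in that setting, with relative changes of -0.80 and -0.71. It was also the only gene of the list called by re-labelling, higher by 0.75 (limma, standard error 0.119, adjusted p = 0.0341). By their brightest probe sets 44 of all 19775 genes were called higher by re-labelling and 104 lower. In the list of amino acid sensing at the lysosome, 0 of 18 measured genes passed and 4 were called higher in that setting: RHEB, the activator of mTOR, the Rag GTPases RRAGC and RRAGD, and LAMTOR5, a subunit of their anchor. Of 16 other amino acid carriers 0 were called in these tests. Their brightest were the mitochondrial carriers SLC25A13, for aspartate and glutamate (2697 on scan C1), and SLC25A15, for ornithine (524), and the lysosomal histidine carrier SLC15A4 (711). Over the brightest probe sets of all 19775 genes, 1290 were called higher and 252 lower in that setting, and over those of the 56 transporter genes 2 and 0. The median signal on scan C1 was 818 in the starvation list, 603 in the sensing list and 61.3 for the transporter genes, against 101 for all genes. The counts of calls were not matched for this difference in brightness.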

How the data were processed

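MAS5 signal intensities of 54675 probe sets in 18 scans were used as deposited; the authors had scaled each scan, and means trimmed by 2% at either end lay between 250.02 and 250.06. No version of MAS5 is given in the sources used here, and signals carry no counts, so that the 3 arrays limit the precision. Symbols came from the array's annotation and, for the members, equalled the RefSeq symbols. Log2 signals were fitted in limma 3.58.1 (R 4.3.3, with data.table in version 1.17.8) without offset or filter, with p-values adjusted over all probe sets to 0.05. Plots used Python 3.11.15, pandas 2.3.3, numpy 2.4.6 and matplotlib 3.10.9. The fits were tested on simulated data.

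Washing (17 against 0 cycles) used 8 scans per series with step as factor and array as block, the difference between series 16 scans, and re-labelling 9 pairs. The pairs come from the labels, by the same array and the same step within each series. The total number of cycles differs within a pair. Alternatives were centring, quantile normalization, anchoring on the 100 brightest probe sets of scan C1, an offset of 16, a filter on dim probe sets, other moderation, no replicate block, single arrays, left-out scans or arrays, gene means, a line in log10 cycles, other rankings and the array as unit. Members, gene lists and tests were chosen with earlier results of these data known. Named are the brightest 2 genes per role, the 6 highest and 6 lowest brighter members per comparison, called members, genes with discordant probe sets, listed system carriers and, of pathway lists, the 3 brightest and any called.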

Additional observations from a re-analysis of the deposited data

How the results depend on the processing

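Washing counts were 0 in the first and second series. Anchoring on the 100 brightest probe sets called 63 members lower in the first series (45.7%, against 54.6% of all probe sets). In the second it called 59 lower (42.8%, against 42.8% of all). A variance trend with robust moderation called 4 higher and 1 lower in the first series and 4 higher in the second. A line in log10 cycles called 3 lower in the first, for which the share of all probe sets was not taken. Leaving out single scans, or the replicate block, called 0. The members' median of the second series (-0.02) was 0.0096 with quantile normalization, 0.0079 with an offset of 16, -0.11 with gene means, -0.0685 on array A alone and -0.0423 on array B alone, and lay between -0.0899 and -0.0173 without single scans. In re-labelling, anchoring called 28 higher (20.3%, against 20.1% of all probe sets). With only probe sets above the median of scan C1 (which leaves out both called members), without the replicate block, with gene means, with the array as unit and with only the scans at 0 or 17 additional cycles, 0 were higher and 0 lower, and leaving out 1 array gave 0 to 1 each way; without the block SLC1A1 206396_at had an adjusted p of 0.131 and SLC1A6 1554592_a_at of 0.0805 in limma. The median (0.01) lay between -0.0106 and 0.0177 without single arrays and was 0.0369 at 0 cycles only. With quantile normalization SLC38A2 222982_x_at turned to -0.0322 in the first series, -0.0875 in the second and -0.0519 in re-labelling, SLC1A5 to -0.0322 and SLC7A11 209921_at to -0.17 in the first series. SLC7A11 209921_at was -0.0440 among brighter probe sets and lay between -0.0263 (without scan B4) and 0.316 (without scan A4) when single scans were left out. Over single left-out scans SLC6A6 228754_at lay between -0.23 (without scan A1) and 1.49 (without scan B1) and SLC7A5 between -0.31 (without scan A1) and 2.76 (without scan B1), and on array B alone they were -0.42 and -0.45 and SLC36A1 213119_at -0.0682. SLC38A2 222982_x_at in re-labelling lay between -0.0593 without array A and 0.266 without array B and was -0.0381 at 17 cycles only. Where no cause is given, the cause was not tested. Of the alternatives for group values, 156 kept their value within the limits and 32 moved; for single probe sets 178 stayed, 14 reversed, 11 moved, 9 gained a call and 12 lost one. Signals below the median of scan C1, which ranged over 17.5 times in the members, limit 84 of the 138.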
